A study of Mus musculus with 6 samples.

Results

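The 19 capture probes described here measure small RNAs that are not miRNAs: 15 probes for small nucleolar RNAs (SNORD), 3 for the spliceosomal RNA U6 and 1 for 5S ribosomal RNA. They were taken from the scanner files by name, as all spots whose gene name begins with SNORD (with or without the prefix hsa_), U6 or 5S. They are 19 of 1984 kinds of probe on the array, which also holds 597 probes for mouse miRNAs, and each was printed as 4 spots. The human prefix hsa_ stands on 10 of the 19 names, and how well those probes match the mouse RNA was not tested. RNAs of this kind are often used as references, and the question put to the data was which of them kept one level in naive and inflamed retina.

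Retinal cells came from B10.RⅢ mice aged 8 weeks, and total RNA was extracted with ISOGEN, per the labels. The 2 groups were 3 naive samples and 3 samples from mice developing experimental autoimmune uveitis (EAU), an autoimmune inflammation of the retina and uvea, on day 14. The labels describe the harvests as independent but give no number of mice per sample, so the p-values below measure the spread between these harvests. The labels name neither the immunising antigen nor any agent given to the naive mice. On every array the sample was labelled with Hy3 and read in the green channel. One pool of equal amounts of the samples was labelled with Hy5 and read in the red channel, and no dyes were swapped.

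As a class these RNAs are short and abundant and are made in nearly every cell. C/D-box snoRNAs form nucleolar particles with fibrillarin, and most of them base-pair with ribosomal RNA to place ribose methyl groups. A few (U3, encoded by SNORD3; U8, encoded by SNORD118; U13, encoded by SNORD13; U14, encoded by SNORD14) act in the maturation of the ribosomal RNA precursor instead of, or beside, methylation. U6 lies at the catalytic centre of the spliceosome, and 5S rRNA is part of the large ribosomal subunit; both are transcribed by RNA polymerase III. Most vertebrate snoRNAs are cut out of introns, so their amount follows the transcription and splicing of a host gene, whereas U3, U8 and U13 have promoters of their own. In the RefSeq annotation of the mouse (GRCm38.p6), 8 of the 19 probes had a gene of the same symbol. A further 6 had genes of the same RNA under other symbols (Rnu6 for the 3 U6 probes, Rn5s for 5S, Rnu3a and the Rnu3b genes for SNORD3@, and Snord14a, Snord14c, Snord14d and Snord14e for SNORD14B). Of these genes, Snord14a lies within Rps13, Snord14c, Snord14d and Snord14e within Hspa8, Snord2 within Eif4a2, and Snord12 within the long non-coding gene Zfas1. No gene was found by symbol for SNORD6, SNORD10, SNORD38B-5, SNORD44-5 and SNORD48-5.

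Values are given in 3 ways. The raw sample signal is the median over a probe's spots of their mean Hy3 intensity, with outlier spots kept. The sample level is log2 of the Hy3 intensity after background correction and quantile normalization between arrays, averaged over the spots without the outliers. The ratio is log2 of sample over pool, normalized within each array by loess. A probe was called changed at an adjusted p under 0.05 in limma, with the Benjamini-Hochberg adjustment over the 614 probes tested. Errors after ± are SDs over the 3 arrays of a group. Levels of different probes are not set against each other, because each probe binds its target and the dye differently. With RNA of whole retina, fewer cells of a type and less RNA per cell cannot be told apart.

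The pool channel gave the background against which the samples were read. The same pool lay on every array, and 0 of the 19 probes were called there by limma, as were 0 of all 616 probes tested (0.00%). At an unadjusted p under 0.05 the pool channel gave 1 of the 19 and 39 of the 616 (6.33%), and the lowest adjusted p of the 19 was 0.622. Its groups did not overlap for 3 of the 19, all lower on the EAU arrays, against 11.4% of all probes (9.74% lower, 1.62% higher). All naive arrays shared 1 scan day and all EAU arrays another, and every array had its own slide. Group and day of scanning therefore cannot be told apart. The median raw sample signal ranged from 54.9 to 93.8 over the arrays and was highest on EAU replicate 2. The brightest signals of the pool were weakest on EAU replicate 3, where the 99th percentile was 230.4 against 526 to 1083 on the other arrays.

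Of the 19 probes, 12 lay above the blanks in the sample channel on all 6 arrays, against 197 of 597 mouse miRNA probes. These were all 3 U6 probes, the 5S probe and SNORD2, SNORD3@, SNORD6, SNORD12, SNORD13, SNORD14B, SNORD38B-5 and SNORD48-5. SNORD44-5 passed on 2 EAU arrays and on no naive array, with raw signals of 77.0, 73.7 and 61.0 in naive samples and 78.6, 134.7 and 58.3 in EAU samples. Its groups overlapped in the sample level, which differed by 0.09 (SE 0.07, limma adjusted p = 0.616). The other 6 (SNORD118, SNORD4A, SNORD10, SNORD15A, SNORD49A-5 and SNORD66-5) passed on no array. Their raw signals lay between 41.6 and 93.7, where the blank level of the arrays was 65.4 to 107. Their sample levels differed between groups by -0.14 to 0.19 and their ratios by -0.05 to 0.05, values that carry no level of the RNA. No spot of any of the 19 probes was saturated.

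In the ratio, limma called 3 of the 19 probes, SNORD3@ higher in EAU and SNORD13 and SNORD14B lower, where 13.0% of all probes tested were called (80 of 614), 4.23% higher and 8.79% lower. In the sample channel it called 2, SNORD3@ higher and SNORD14B lower, against 9.45% of all probes (58 of 614), 3.58% higher and 5.86% lower. These shares, 15.8% and 10.5% of the 19, lie near those of all probes. At an unadjusted p under 0.05 there were 6 of the 19 in the ratio (34.0% of all probes) and 8 in the sample channel (24.4%). The groups did not overlap for 8 of the 19 in the ratio (46.4% of all probes), 4 of them higher in EAU (17.1%) and 4 lower (29.3%). In the sample channel they did not overlap for 8 (30.3% of all probes), 5 of them higher and 3 lower. The median difference of the 19 was 0.01 in the ratio and -0.01 in the sample channel, and that of all probes was -0.01 in both. Both normalizations hold the median of all probes near 0, and 7 of the 19 were not above the blanks on all arrays. For the 12 that were, the median absolute difference in the sample channel was 0.47. It was 0.28 for the 197 mouse miRNA probes above the blanks on all arrays. The called probes are 3 of the 4 for snoRNAs of precursor maturation, and the fourth, SNORD118, was not above the blanks. Their directions differ, and 2 of them were called in the sample channel. No U6, 5S or methylation-guide snoRNA probe was called in either. Since the share called is near that of all probes and the classes were chosen with earlier results known, no pattern by class is read from these calls.

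SNORD14B, which measures U14, a snoRNA needed for small-subunit rRNA maturation, had the largest difference of the 19. Its raw sample signal was 403, 555 and 531 in the naive samples and 129.6, 142 and 93.9 in the EAU samples. Every EAU array lay far below every naive array even before normalization, with means of 496 ± 81.7 and 122 ± 25.1 (n = 3 each), a 4.07-fold lower signal in EAU. The sample level fell by 2.05 on the log2 scale, from 9.15 ± 0.38 to 7.10 ± 0.24 (SE 0.22, 95% interval -2.60 to -1.50, limma adjusted p = 0.00766). That is 4.14-fold. The ratios were 0.03, 0.49 and 0.16 in naive and -0.997, -1.24 and -0.99 in EAU samples, again without overlap. The ratio fell by 1.31 (SE 0.14, 95% interval -1.65 to -0.96, limma adjusted p = 0.0121). In the pool channel the same probe differed by 0.10 (limma adjusted p = 0.906). The sample-channel call stood in all 17 alternatives tried, with differences from -2.74 to -1.82. The ratio call was lost without EAU replicate 3 (difference -1.35, adjusted p = 0.0528). In the authors' deposited table of ratios, SNORD14B stood at 0.934, 1.62 and 1.14 in naive and 0.441, 0.424 and 0.397 in EAU samples.

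SNORD3@, the probe for U3, the abundant snoRNA of the first cleavages of the ribosomal RNA precursor, was called in the opposite direction. Its raw sample signal was 393, 355 and 323 in naive and 580.1, 1341 and 392 in EAU samples. Before normalization the groups overlapped, since EAU replicate 3 lay level with naive replicate 1. After quantile normalization the sample levels were 8.73, 8.75 and 8.73 in naive and 9.14, 9.36 and 9.35 in EAU samples, with no overlap. The difference was 0.55 (SE 0.07, 95% interval 0.37 to 0.73, limma adjusted p = 0.0122), or 1.46-fold. The ratios were -0.01, -0.19 and 0.07 against 0.42, 0.35 and 0.40, a difference of 0.43 (SE 0.07, limma adjusted p = 0.0220). The sample-channel call was lost when any 1 of 3 arrays was left out: naive replicate 1 (adjusted p = 0.0605), naive replicate 3 (0.0612) or EAU replicate 2 (0.0527). It held in 9 of 17 alternatives. Among those that ended it were no normalization between arrays (difference 0.81, limma adjusted p = 0.990), scaling to the mouse median (0.273), scaling to the 75th percentile (0.165) and the scanner's processed signal (0.992). In the ratio the call was lost when naive replicate 1 (adjusted p = 0.0858) or EAU replicate 3 (0.0755) was left out. It was also lost with median centring (0.0740), centring on the detected small RNA probes (0.0614), offset 0 (0.0902) and the authors' deposited table (0.204), and it held in 11 of 19 alternatives.

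SNORD13, the probe for U13, was called lower in the ratio and was not called in the sample channel. Its raw sample signal was 348, 358 and 294 in naive and 362, 415 and 136 in EAU samples, so 2 EAU arrays exceeded every naive array and the third lay well below. The ratios were 0.44, 0.53 and 0.65 in naive and 0.09, -0.30 and 0.12 in EAU samples, without overlap. Their difference was -0.57 (SE 0.13, 95% interval -0.89 to -0.24, limma adjusted p = 0.0479). The sample level overlapped between groups and differed by -0.59 (SE 0.21, limma adjusted p = 0.147). The ratio call is close to the threshold: it held in 7 of 19 alternatives and without EAU replicate 2 alone among the arrays left out, with adjusted p from 0.0369 to 0.145 over those 6. In the sample channel it was called without EAU replicate 1 (difference -0.81, adjusted p = 0.0145).

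Raw signals of the 3 U6 probes and the 5S probe were spread more widely over the EAU arrays than over the naive arrays. U6-snRNA-1 read 2472, 2309 and 2552 in naive and 4028, 6744 and 2287 in EAU samples. U6-snRNA-2 read 6930, 6009 and 6082 in naive and 11432, 18812 and 6724 in EAU samples. U6B-5 read 1189.6, 1237 and 1279.5 in naive and 2712, 3514 and 1167 in EAU samples. For all 3 probes EAU replicates 1 and 2 lay above every naive array, and EAU replicate 3 lay within or below the naive range. The naive SDs were 124, 512 and 45.0, and those of the EAU samples were 2247, 6093 and 1193, in the same order. The 5S probe read 6709, 6612 and 5452 in naive and 8115, 11846 and 7082 in EAU samples. Here all 3 EAU arrays exceeded the naive ones, the lowest by a small margin.

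After quantile normalization the EAU arrays lay above the naive arrays for all 4 of these probes, but limma called none of them. U6-snRNA-1 stood at 11.40 ± 0.20 in naive and 11.88 ± 0.07 in EAU samples, a difference of 0.48 (SE 0.11, limma adjusted p = 0.0510). The differences of U6-snRNA-2 and U6B-5 were 0.80 (SE 0.20, limma adjusted p = 0.0690) and 0.65 (SE 0.19, limma adjusted p = 0.0947). The 95% intervals of the 3 U6 probes overlapped, at 0.21 to 0.75, 0.29 to 1.30 and 0.18 to 1.12, and all excluded 0 before adjustment over the probes. The 5S probe stood at 12.61 ± 0.11 and 13.07 ± 0.20, a difference of 0.46 (SE 0.12, 95% interval 0.17 to 0.76, limma adjusted p = 0.0708). With the fit limited to probes above the blanks on at least 3 arrays, all 4 were called higher (adjusted p from 0.0140 to 0.0440). That fit called 80 of its 300 probes, against 58 of 614 in the main fit. Without naive replicate 3, U6-snRNA-1 was called (0.59, adjusted p = 0.0403), and without EAU replicate 1 the 5S probe was called (0.55, adjusted p = 0.0391). U6-snRNA-1 was also called with outlier spots kept (0.47, limma adjusted p = 0.0322), where 65 of 616 probes were called. With the scanner's processed signal the 5S difference was -0.01.

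Against the pool the same 4 probes differed less. The ratio differences were 0.27 for U6-snRNA-1, 0.25 for U6-snRNA-2, 0.07 for U6B-5 and 0.27 for 5S, with limma adjusted p from 0.366 to 0.782 and overlapping groups for each. On naive replicate 1, 3 of the 4 spots of U6-snRNA-1 were outliers in a channel and were left out of its ratio. With outlier spots kept, U6-snRNA-1 was called higher in the ratio (0.26, limma adjusted p = 0.0258), where 89 of 616 probes were called. The 5S ratios were -0.62, -0.51 and -0.92 in naive and 0.07, 0.05 and -1.34 in EAU samples. EAU replicate 3 thus lay below every naive array while the other EAU arrays lay above them. Without it the 5S difference was 0.74 in place of 0.27 (adjusted p = 0.0712). With no normalization within the array both U6-snRNA probes and the 5S probe were called higher, by 1.31, 1.49 and 1.49, where 32 of all 614 probes were called.

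In the quantile-normalized sample level, the methylation-guide snoRNAs showed the smallest differences of the 12 probes above the blanks on all arrays, which did not hold in the ratio, where U6B-5 differed less than SNORD2, SNORD38B-5 and SNORD48-5. SNORD2, whose mouse gene lies within the translation factor gene Eif4a2, read 687, 746 and 555 in naive and 693, 1357 and 413 in EAU samples, and the EAU arrays enclosed the naive ones. Its sample level differed by -0.22 (SE 0.07, 95% interval -0.40 to -0.04, limma adjusted p = 0.121). All EAU arrays lay slightly below the naive arrays after normalization, at 9.30, 9.40 and 9.38 against 9.48, 9.70 and 9.56.

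SNORD38B-5 read 194, 260.4 and 161 in naive and 214, 395 and 142 in EAU samples. Its sample levels overlapped and differed by -0.03 (SE 0.08, 95% interval -0.24 to 0.18, limma adjusted p = 0.954). SNORD48-5, a probe for U48, read 125, 113 and 95.4 in naive and 106, 176 and 88.6 in EAU samples. Its sample level differed by -0.01 (SE 0.12, 95% interval -0.30 to 0.29), and its ratio by -0.21 (SE 0.08, 95% interval -0.42 to -0.01, limma adjusted p = 0.134). The ratio of this probe was lower on all 3 EAU arrays than on any naive array, while the sample levels overlapped.

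SNORD6 read 139, 135 and 120.4 in naive and 108, 261 and 73.4 in EAU samples. Its sample level differed by -0.07 (SE 0.13, 95% interval -0.40 to 0.26) and its ratio by -0.03 (SE 0.05). In the pool channel SNORD6 was dim: on EAU replicate 3 it read 35.2, where the blank level was 39.0. With the offset of 50, differences in a ratio over so dim a signal are narrowed. SNORD12 read 203, 169 and 149 in naive and 223, 500.1 and 138 in EAU samples, and its sample level differed by 0.21 (SE 0.15, 95% interval -0.17 to 0.58, limma adjusted p = 0.539). Both probes overlapped between groups in the sample level and in the ratio, and a missing call at 3 against 3 arrays does not show equal levels.

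A sound reference was taken to be a probe above the blanks on all 6 arrays with no saturated spot and with 95% intervals of the group difference within 1.5-fold in both the sample level and the ratio. Its pooled SD within groups also had to be at or under 0.207, the median of the mouse miRNA probes above the blanks on all arrays. SNORD2 (pooled SD 0.0877), SNORD38B-5 (0.107), SNORD48-5 (0.163) and SNORD6 (0.185) met all of these, 4 of 12 or 33.3%. Among the mouse miRNA probes above the blanks 52 of 197 met them, or 26.4%. SNORD12 lay just outside: it missed the limit on the SD alone, at 0.212. No U6 probe and not the 5S probe met them. U6-snRNA-1 and 5S kept to the SD limit (0.147 and 0.163) but their intervals passed 1.5-fold, as did that of SNORD3@ with an SD of 0.0894. For SNORD38B-5, SNORD48-5 and SNORD6 no mouse gene was found by symbol in the annotation, and which RNA these probes captured was not tested. Detection in the pool channel was not among the criteria, and SNORD6 was above the blanks there on 5 arrays.

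The count of sound references depended on the normalization. It was 4 with quantile normalization, and 0 either with none between arrays or with each array scaled to the median of the detected mouse miRNA probes, where 6 and 21 mouse probes met the criteria. With a background offset of 0 in place of 50 only SNORD2 met them, along with 3 mouse miRNA probes. SNORD2 and SNORD38B-5 met them whichever single array was left out. SNORD48-5 was lost without EAU replicate 3, and SNORD6 without naive replicate 1, EAU replicate 1 or EAU replicate 3. With a limit of 2-fold, SNORD3@ and U6-snRNA-1 met the criteria as well.

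Signals without normalization between arrays, but background-corrected with the offset of 50, showed how the members moved from array to array. The offset narrows the movement of dim probes more than that of bright ones. EAU replicate 2 exceeded EAU replicate 3 by 1.53 to 1.62 in log2 for the 3 U6 probes and by 1.85 for SNORD2, but by 0.94 for SNORD48-5, 0.84 for 5S and 0.47 for SNORD14B. For each pair of the 12 probes the SD of their log2 difference over the 6 arrays was computed. It measures how well their offset signals kept a constant proportion, with no normalization between arrays. Because of the offset, dim and bright probes are not compared on equal terms. The tightest pairs were SNORD6 with SNORD38B-5 (0.134) and U6-snRNA-1 with U6-snRNA-2 (0.139). Averaged over its 11 partners, the SD was smallest for SNORD12 (0.378), SNORD6 (0.384) and SNORD38B-5 (0.392). It was 0.411 for SNORD48-5, 0.421 for SNORD2, 0.424 to 0.519 for U6 and 5S, 0.558 for SNORD13 and 1.30 for SNORD14B. Part of this order rested on SNORD14B as a partner. Without it, over 10 partners, SNORD12 (0.281), SNORD6 (0.308) and SNORD38B-5 (0.313) still came first. U6-snRNA-1 (0.320) and U6-snRNA-2 (0.332) then came before SNORD48-5 (0.338), and 5S (0.345) before SNORD2 (0.348).

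The choice of reference set the group difference of the miRNAs. Un-normalized sample signals were divided by 1 member at a time, which shifts every miRNA by the same amount, and the median difference of the 595 mouse miRNA probes tested was read. It was 0.00 with no reference, -0.76 with U6-snRNA-2, -0.86 with U6B-5 and -0.51 with 5S. With SNORD14B it was 1.86 and with SNORD13 0.31. The 4 probes that met the criteria gave -0.03 (SNORD2), -0.10 (SNORD6), -0.15 (SNORD48-5) and -0.20 (SNORD38B-5), and their mean gave -0.12. Each of these values is the member's own un-normalized difference with the sign turned. The 4 probes were chosen in the same arrays for small differences, so their small shifts do not show that they are sound references.

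Individual miRNAs show what these shifts amount to. The difference of miR-21, an miRNA known to rise in activated immune cells, was 1.98 with U6B-5, 2.72 with the mean of the 4 probes and 4.71 with SNORD14B, higher in EAU under each. That of let-7f ran from -0.95 with U6B-5 through -0.21 with the mean of the 4 to 1.77 with SNORD14B. Since the shift is common to all probes, the span between these values is set by the members' own differences, and any miRNA with a small difference would change sign in the same way. No p is given for these, because an error in the shared reference moves all probes together.

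Centring the log ratios on the members had the same kind of effect. With loess, limma called 80 of 614 probes, 26 higher and 54 lower in EAU, and the median of all was -0.01. With each array centred on the 12 detected members in place of loess it called 20 higher and 51 lower, with a median of -0.47. Centred on the 5S probe alone it called 1 higher and 577 lower, with a median of -1.45. An error in the shared centre moves all probes together, so the counts with members as the centre are not separate results for each probe. With plain median centring limma called 3 higher and 2 lower, and with no normalization within the array 27 higher and 5 lower. The difference of let-7f was -0.60 with loess, -0.59 with the 12 members and -1.57 with the 5S probe. Taken from the median of all probes under the same centring, it was -0.59, -0.12 and -0.12.

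The miRNA probes that met the criteria with the smallest SD of the quantile-normalized level over the 6 arrays were mmu-miR-294* (SD 0.0487), mmu-miR-503* (0.0580) and let-7c (0.0581). Their raw signals ran from 189 to 642, 1788 to 3814 and 604 to 1959, in that order. The ratio differed by 0.06 for mmu-miR-294* (95% interval -0.02 to 0.15) and by -0.21 for mmu-miR-503* (95% interval -0.39 to -0.03). The sample level of let-7c differed by -0.00 (SE 0.06, 95% interval -0.15 to 0.15) and its ratio by -0.14 (95% interval -0.27 to -0.02). Its sequence and that of let-7f are shown because both serve as examples above and they share the seed GAGGUAG (capitals, bases 2 to 8). Both are from RefSeq, GRCm38.p6, 5′ to 3′. Mature let-7c-5p is encoded at 2 places, within Mirlet7c-1 (chr16:77599672-77599693, plus strand) and Mirlet7c-2 (chr15:85706616-85706637, plus strand), and mature let-7f-5p within Mirlet7f-1 (chr13:48537889-48537910, minus strand) and Mirlet7f-2 (chrX:151912353-151912374, plus strand).
mmu-let-7c-5p: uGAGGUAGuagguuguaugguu
mmu-let-7f-5p: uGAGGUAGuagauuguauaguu

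Markers of the cell types moved with the groups in which SNORD14B, SNORD3@ and SNORD13 differed. All 3 photoreceptor, both neuronal and both pigment epithelium miRNAs were above the blanks on every array, and all were called lower in EAU in the sample channel by limma. In the ratio limma called 1 of the 3 photoreceptor, 1 of the 2 neuronal and both pigment epithelium miRNAs lower; miR-96 (adjusted p = 0.0603), miR-182 (0.108) and miR-124 (0.522) were not called. The photoreceptor miRNA called in the ratio, miR-183, lay close to the threshold (limma adjusted p = 0.0459 in the sample channel and 0.0496 in the ratio). Its EAU sample levels ran from 5.88 to 8.19. The summed sample level of the photoreceptor list, on the log2 scale, was 11.6 to 11.8 in naive and 9.35 to 9.68 in EAU samples. For the pigment epithelium list it was 10.6 to 10.8 and 8.95 to 9.75, and for the neuronal list, over 5 arrays with both values, 15.6 to 15.8 and 13.4 to 13.9. Of 5 leukocyte miRNAs, 2 were above the blanks on all naive arrays and 4 on all EAU arrays, and 1, miR-142-5p, was called higher in the sample channel; in the ratio the 1 called was miR-142-3p (limma adjusted p = 0.0169). The summed level of that list was 9.06 to 9.30 in naive and 9.60 to 10.2 in EAU samples. Of its members miR-142-3p, miR-142-5p and miR-155 were above the blanks on no naive array. The part of cell composition in the differences of the 19 probes was not tested.

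Control spots named as spikes also differed between arrays. All 10 had a lower mean Hy3 signal on the EAU arrays, by 1.03-fold to 1.94-fold. Many were dim: spike_control_a, b, c, e and f lay below the blank level on every array. For 1 of the 10, spike_control_h, the groups did not overlap, at 173, 160.4 and 127 in naive and 71.6, 106.9 and 58.6 in EAU samples. Its EAU values lay below the blank levels of those arrays, 72.7, 107.4 and 65.4. The brightest, spike_control_i, read 491, 487 and 375 in naive and 205, 466 and 115 in EAU samples in the Hy3 channel. Its groups overlapped and the EAU arrays spanned the wider range, with EAU replicate 3 lowest, the array on which the U6 signals were also lowest in EAU. The sources used here do not say whether or in what amount spikes were added to each sample, so no level was set by them, and the part of labelling in the differences above was not tested.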

How the data were processed

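The authors deposited one scanner file per array with the intensity of each spot in 2 channels, written by Agilent Feature Extraction (version 9.1.3.1 per the file headers), the program that the submitters' processing notes also name. The authors also deposited a value table of linear ratios, whose direction and scale were found by setting it against the scanner ratios (median correlation 0.932 over 196 probes) and whose column medians were 0.769 to 0.886; its normalization is not given in the sources used here. RNA (800 ng) was labelled, per the labels.

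In R 4.3.3 with limma 3.58.1, signals were corrected with normexp (offset 50). Loess, with a weight of 0 for control spots, normalized the ratios within arrays, and the sample and pool channels were quantile-normalized between arrays. Outlier spots were left out of the log2 values, which were averaged over a probe's remaining spots. Raw signals and the comparison with the blanks kept all spots. A fit of EAU against naive (lmFit and eBayes, two-sided) ran over 614 probes, 595 of mouse miRNAs and the 19 small RNA probes. A probe was above the blanks on an array if at least 50% of its spots passed the median plus 3 median absolute deviations of 116 blank and 28 negative-control spots. The number of arrays limits the precision.

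All small RNA probes are named; beside them stand the 3 miRNA probes meeting the reference criteria with the smallest SD, and miR-21 and let-7f. The marker lists were 3 photoreceptor, 2 neuronal, 2 pigment epithelium and 5 leukocyte miRNAs. Members, lists and criteria were chosen with earlier results of these data known. The pairwise SDs (with and without SNORD14B), the division by single members and the spike values were added after seeing the data. The scripts were tested on simulated data. Alternatives covered background correction, normalization, outlier spots, spot summary, dim probes, probes fitted, arrays left out and a replicate block. Capture probe sequences were not used here.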

Additional observations from a re-analysis of the deposited data

How the results depend on the processing

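The small number of arrays and the scan day, which cannot be told apart from the group, limit every comparison above. Numbers in brackets below are the calls among all probes of the same fit, 614 unless stated. The count of probes called in the ratio, 3 (80), became 1 with median centring (5) and 5 with no normalization within the array (32). It became 5 centred on the detected small RNA probes (71), 14 centred on the 5S probe (578) and 1 with a background offset of 0 (27). It became 4 with outlier spots kept (89 of 616). With single arrays left out, of 611 to 614 probes, it ranged from 0 to 3 (1 to 77). The count in the sample channel, 2 (58), became 1 with no normalization between arrays (2), 1 scaled to the mouse median (8) and 1 scaled to the 75th percentile (28). It became 1 with the scanner's processed signal (7), 4 with the median over the spots (68) and 6 with dim probes filtered (80 of 300). It became 3 with outlier spots kept (65 of 616). Scaled to the mean of the 4 probes meeting the criteria, an alternative chosen after seeing the data, it was 1 (11). With single arrays left out, of 613 or 614 probes, it ranged from 1 to 4 (20 to 48). The count meeting the criteria, 4, became 1 with offset 0, 0 with no normalization between arrays and 0 scaled to the mouse median, and ranged from 2 to 5 with single arrays left out. The cause of these changes was not tested.

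The sources pair no samples by replicate number, and same-numbered samples did not deviate together (correlations of 0.16, -0.14 and 0.31 in the ratio). With the replicate number as a block, limma called 0 of the 19 probes in the ratio (2 of all 614), where SNORD14B and SNORD3@ each had an adjusted p of 0.0778 and SNORD13 one of 0.101. In the sample channel it called 2 (35 of all 614).

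The sign of several small differences, none of them called at the settings of the report except SNORD3@, turned with the setting. In the ratio centred on the 5S probe, U6-snRNA-1 stood at -0.18, U6-snRNA-2 at -0.00030, U6B-5 at -0.42, SNORD3@ at -0.34 and SNORD12 at -0.95. With the median over the spots U6-snRNA-1 stood at -0.19 and U6B-5 at -0.022. SNORD2, SNORD6, SNORD38B-5 and SNORD48-5 stood at 0.33, 0.14, 0.21 and 0.061 with median centring and at 0.40, 0.21, 0.28 and 0.13 with no normalization within the array. SNORD6 stood at 0.039 with offset 0, 0.058 with the scanner's processed signals and 0.11 in the authors' deposited table. In the sample channel with no normalization between arrays, SNORD2, SNORD6, SNORD38B-5 and SNORD48-5 stood at 0.031, 0.10, 0.20 and 0.15. SNORD38B-5 stood at 0.049 scaled to the 75th percentile, SNORD48-5 at 0.00058 with offset 0, and the 5S probe at -0.011 with the scanner's processed signal. Scaled to the 4 probes meeting the criteria, SNORD38B-5 stood at 0.078 and SNORD48-5 at 0.026. With single arrays left out, the ratio ranged from -0.025 to 0.10 for SNORD12, -0.092 to 0.0090 for SNORD6 and -0.088 to 0.17 for U6B-5, and the sample level from -0.088 to 0.047 for SNORD38B-5 and -0.13 to 0.079 for SNORD48-5. The 7 probes that were not above the blanks on all arrays were called under no alternative except the centring on the 5S probe, which called all 7 and 578 of all 614 probes.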
